A study of Mus musculus with 9 samples.

Results

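IECs (intestinal epithelial cells) shaken from the mouse colon with EDTA carry some of the leukocytes that live among them, and 10 marker genes of such leukocytes were followed here. They are Ptprc, Cd3e, Cd3g, Cd8a, Itgae, Gzma, Gzmb, Cd79a, Jchain and Itgam, taken by symbol as markers of intraepithelial T cells, plasma and B cells and myeloid cells, and all 10 were found among the 46095 rows of the count table. There were 4 RNA-seq libraries from Smad4 Vil-KO mice and 5 from Smad4 Vil-KO;Setd2 Vil-KO mice (double-knockout below), on a C57BL/6j background. In both groups Cre driven by the Villin promoter removes floxed Smad4 in the intestinal epithelium, and in the second group floxed Setd2 as well, so that the leukocytes themselves are not the cells that the Cre targets. All mice had received azoxymethane (AOM, a colon carcinogen, 10 mg/kg, given at 8 weeks of age) and 2% dextran sodium sulphate (DSS, a polymer toxic to the colonic epithelium), and their IECs were taken at 10 days of treatment. No library without the Smad4 deletion or without AOM/DSS was part of the comparison, and no sorting step that removes leukocytes is described.

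The colonic epithelium holds intraepithelial lymphocytes, mostly T cells that carry the CD3 complex, often the CD8 alpha chain, and the integrin alpha E beta 7, which binds E-cadherin on epithelial cells. Many of these T cells store granzymes, serine proteases that enter target cells and help to kill them. Plasma cells beneath the epithelium secrete IgA polymers held together by the J chain, while B cells carry the antigen receptor with its CD79 chains and myeloid cells carry the integrin alpha M.

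The calls among the 10 genes were the granzymes. Gzma and Gzmb were higher in the double-knockout group by 3.41-fold and 3.84-fold. For both genes double-knockout replicate 5 lay within the Smad4 Vil-KO range. Both calls were lost without Smad4 Vil-KO replicate 1 and without replicate 3. The general leukocyte gene Ptprc and the T cell genes Cd3e, Cd3g, Itgae and Cd8a had fold changes between 0.954 and 1.39, none of which passed the test.

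Values are in CPM, the rate of a gene among the counts of its library after TMM scaling. Library totals ran from 12487129 to 17120202 counts, so that a single count was worth 0.0593 to 0.0793 CPM. The epithelial marker Epcam lay between 1803 and 2026 CPM and Ptprc between 22.2 and 56.2 CPM, so the preparations were epithelial by these markers with a small leukocyte signal. As a check of the labels, Setd2 lay at 99.0 to 120 CPM in the Smad4 Vil-KO libraries and at 53.8 to 86.9 CPM in the double-knockout libraries, whereas Smad4, floxed in both groups, overlapped between them (54.2 to 92.6 and 38.2 to 114 CPM). Genes were compared by the quasi-likelihood test of edgeR, p-values were adjusted over 14593 genes, and a gene was called at an adjusted p under 0.05. By this test 6.76% of all genes tested were called higher and 6.54% lower in the double-knockout libraries. Of the 10 leukocyte genes, all of which were tested, 2 were called higher and 0 lower. At an unadjusted p under 0.05, 3 of the 10 were higher and again 0 lower, and DESeq2 and limma-voom also called 0 lower. Libraries of both genotypes overlapped for each of the 10 genes, against 8.33% of all genes with every double-knockout library above and 8.89% with every one below the Smad4 Vil-KO libraries.

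Each library was taken as 1 mouse, and mouse numbers are the replicate numbers of the labels. Libraries stood apart in several ways that bear on the leukocyte genes. Double-knockout replicates 1, 2 and 5 carried 3857 to 4907 counts of 4 Y-linked genes, whereas double-knockout replicates 3 and 4 and all Smad4 Vil-KO libraries carried 0 to 28. Double-knockout replicate 5 had low values of most of the 10 genes. Its sum over the 10 genes was 75.7 CPM, against 202 to 255 CPM in the other double-knockout libraries and 88.0 to 158 CPM in the Smad4 Vil-KO libraries. Double-knockout replicates 1 and 2 also had 5.62% and 6.29% mitochondrial counts, against 8.12% to 10.3% in the other 7 libraries, and their counts differed more from replicates 3 to 5 (chi-square per gene of 46.2 to 70.03) than those 3 did from each other (9.92 to 28.7). Smad4 Vil-KO replicate 1 likewise differed more from the other Smad4 Vil-KO libraries (27.3 to 42.2) than those did from each other (11.5 to 12.9). It was the lowest of all 9 libraries for 4 of the 10 genes, Gzma and Gzmb among them, and without it 0 of the 10 genes were called. The counts of calls among the 10 genes are therefore also given without double-knockout replicate 5, within the libraries that lacked Y-linked counts and with each library left out. In bulk RNA, fewer cells of a type and less RNA per cell cannot be told apart, and this holds for every value that follows.

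Gzma encodes granzyme A, a tryptase-like protease of cytotoxic lymphocyte granules (chr13:113093824-113100981, minus strand). It stood at 8.46, 13.6, 9.32 and 13.5 CPM in mice 1 to 4 of the Smad4 Vil-KO group. In mice 1 to 5 of the double-knockout group it stood at 30.8, 43.6, 47.5, 59.2 and 10.1 CPM. The first 4 double-knockout libraries all lay above every Smad4 Vil-KO library, and replicate 5 lay inside their range. The means were 11.2 ± 2.72 CPM (SD, n = 4) and 38.2 ± 18.7 CPM (SD, n = 5). The log2 fold change was 1.77 with a standard error of 0.41 and a 95% interval of 0.88 to 2.66 (edgeR adjusted p = 0.0187). The call was lost without Smad4 Vil-KO replicate 1 (adjusted p = 0.0594) and without replicate 3 (0.0667), with adjusted p from 0.00012 to 0.0667 over all alternatives, those with DESeq2 and limma-voom included.

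Gzmb encodes granzyme B, the granule protease that cleaves after aspartate and activates caspases (chr14:56258836-56262334, minus strand). Mice 1 to 4 of the Smad4 Vil-KO group had 6.73, 10.4, 7.73 and 15.4 CPM. Mice 1 to 5 of the double-knockout group had 55.4, 69.6, 24.01, 36.0 and 7.12 CPM. As for Gzma, the first 4 lay above all Smad4 Vil-KO libraries and replicate 5 did not. Means came to 10.1 ± 3.87 CPM (SD, n = 4) and 38.4 ± 24.8 CPM (SD, n = 5), with a log2 fold change of 1.94, a standard error of 0.53 and a 95% interval of 0.77 to 3.11 (edgeR adjusted p = 0.0364). This call was the less stable of the pair: it was lost without any of 7 libraries in turn, the 4 Smad4 Vil-KO libraries and double-knockout replicates 1, 2 and 4, at edgeR adjusted p from 0.0538 to 0.110. Over all alternatives its adjusted p ran from 0.00327 to 0.147. Without double-knockout replicate 5 the log2 fold changes were 2.03 for Gzma and 2.22 for Gzmb (edgeR adjusted p = 0.00063 and 0.00327).

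**Figure D1:**
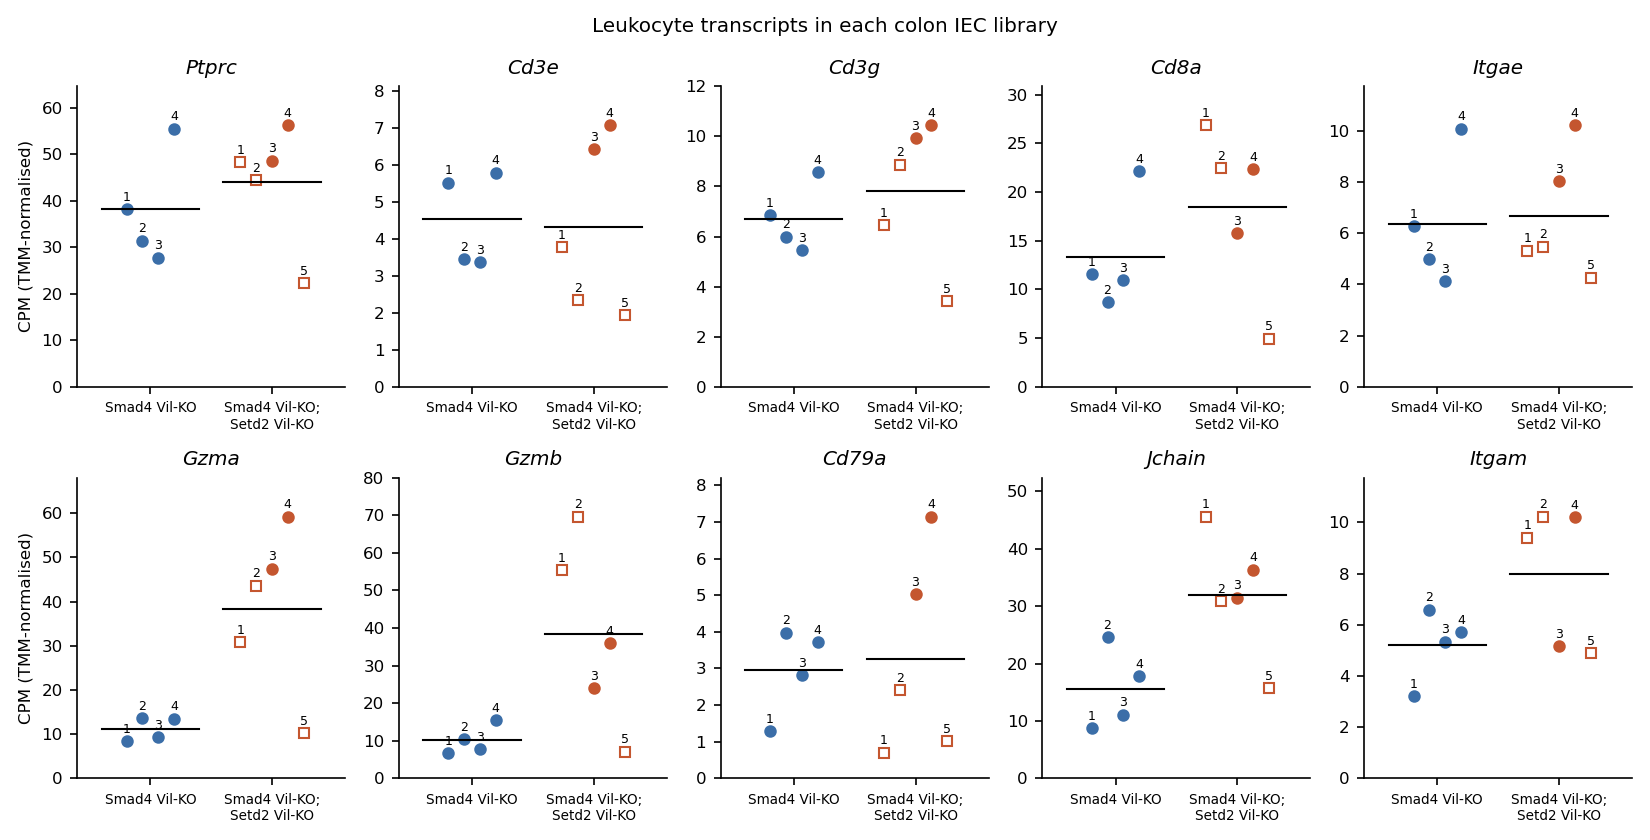
CPM of the 10 leukocyte genes in each library, one panel per gene with a linear axis from 0, numbers marking the replicate, horizontal lines the genotype means and open squares the libraries with Y-linked counts. Gzma and Gzmb of double-knockout replicates 1 to 4 sit above all 4 Smad4 Vil-KO libraries, while replicate 5 sits at 10.1 and 7.12 CPM, and Ptprc, Cd3e, Cd3g and Itgae overlap.

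The 2 granzymes did not move in step within the double-knockout group. The count of Gzmb over that of Gzma was 0.795, 0.765, 0.8289 and 1.14 in mice 1 to 4 of the Smad4 Vil-KO group. It was 1.80 and 1.596 in double-knockout replicates 1 and 2, and 0.506, 0.607 and 0.702 in replicates 3 to 5. Gzmb thus led in the first pair, both with Y-linked counts, and Gzma in the other three, of which replicate 5 also had Y-linked counts.

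The promoters of both called genes are shown with that of Cd3g, a T cell gene that was not called. Each sequence is the 250 bases before the annotated start from RefSeq (GRCm38.p6), on the strand of the gene, at chr13:113100982-113101231, chr14:56262335-56262584 and chr9:44980432-44980681. Capitals mark matches on either strand to 6 motifs of factors known in lymphocytes or at start sites, namely RUNX (TGTGGT), ETS (AGGAAG), AP-1 (TGANTCA), T-box (AGGTGTGA), CRE (TGACGTCA) and the TATA box (TATAAA).
Gzma: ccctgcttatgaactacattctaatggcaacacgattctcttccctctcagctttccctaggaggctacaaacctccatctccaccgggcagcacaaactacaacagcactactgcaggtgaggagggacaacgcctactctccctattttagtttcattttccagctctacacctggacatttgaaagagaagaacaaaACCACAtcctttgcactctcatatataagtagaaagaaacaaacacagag
Gzmb: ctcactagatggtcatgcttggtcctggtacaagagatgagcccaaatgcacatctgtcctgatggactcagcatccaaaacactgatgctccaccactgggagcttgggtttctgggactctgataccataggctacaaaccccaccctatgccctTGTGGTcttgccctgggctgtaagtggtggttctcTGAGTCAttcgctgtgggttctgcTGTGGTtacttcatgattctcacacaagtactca
Cd3g: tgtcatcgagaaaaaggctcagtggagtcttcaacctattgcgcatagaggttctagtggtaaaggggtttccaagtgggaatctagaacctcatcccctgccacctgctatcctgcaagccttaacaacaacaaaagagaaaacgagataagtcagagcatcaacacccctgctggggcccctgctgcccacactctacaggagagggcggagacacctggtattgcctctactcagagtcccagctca
The window of Gzma held 1 RUNX match, 50 bases before the start. That of Gzmb held 2 RUNX matches, 93 and 34 bases before the start, and 1 AP-1 match at 58 bases, whereas that of Cd3g held no match to the 6 motifs. Among the 9 genes with an entry (Itgae had none), the windows of Gzma and Gzmb were those with a RUNX match. ETS matches lay in windows of Ptprc, Cd79a, Itgam and Cd3e, none of which was called. The windows shown were chosen after the calls were known. Over 32851 promoters of the same length, 14% held a RUNX match, 29.5% ETS, 6.75% AP-1, 1.12% T-box, 1.55% CRE and 12.4% TATA. These matches describe letters only, and no binding was measured.

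The T cell genes gave no call in either direction. Cd3g and Cd3e encode the gamma and epsilon chains of the CD3 complex, which carries the signal of the T cell receptor, and they neighbour each other on chromosome 9 (chr9:44969572-44980431 and chr9:44998735-45009663, both minus strand). Cd3g was at 6.86, 5.99, 5.46 and 8.56 CPM in mice 1 to 4 of the Smad4 Vil-KO group, and at 6.46, 8.87, 9.91, 10.4 and 3.41 CPM in mice 1 to 5 of the double-knockout group. The log2 fold change was 0.22 (standard error 0.29, 95% interval -0.42 to 0.87, edgeR adjusted p = 0.639). Cd3e was at 5.51, 3.44, 3.37 and 5.79 CPM against 3.77, 2.34, 6.42, 7.07 and 1.94 CPM, with a log2 fold change of -0.07 (standard error 0.39, 95% interval -0.92 to 0.79, edgeR adjusted p = 0.924). For both genes double-knockout replicate 4 was the highest library and replicate 5 the lowest, so that the double-knockout range enclosed that of the Smad4 Vil-KO group. The sign of Cd3e turned with the scaling and with the libraries used, and its counts were low, at 25 to 92 a library. An antisense gene, Gm48719, overlaps Cd3e, and whether counting used strand is not given in the sources used here.

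Cd8a encodes the alpha chain of CD8, the coreceptor for MHC class I (chr6:71373427-71379171, plus strand). It was at 11.6, 8.66, 10.98 and 22.1 CPM in mice 1 to 4 of the Smad4 Vil-KO group and at 26.9, 22.4, 15.8, 22.4 and 4.96 CPM in mice 1 to 5 of the double-knockout group. Smad4 Vil-KO replicate 4 stood beside the high double-knockout libraries, and the log2 fold change of 0.48 did not pass the test (standard error 0.41, 95% interval -0.43 to 1.39, edgeR adjusted p = 0.459). The beta chain gene Cd8b1, which with Cd8a forms the heterodimer of conventional CD8 T cells, was at 2.76, 0.772, 2.02 and 6.18 CPM against 5.43, 4.54, 0.977, 1.02 and 0.465 CPM. Its count over that of Cd8a was between 0.0890 and 0.280 across the Smad4 Vil-KO libraries. The ratio was 0.202 and 0.203 in double-knockout replicates 1 and 2 but 0.0619, 0.0456 and 0.0938 in replicates 3 to 5, the same division of the double-knockout libraries as for Gzmb over Gzma and as for mitochondrial counts, whose part in it was not tested. CD8 made of alpha chains alone is the usual form on many intraepithelial lymphocytes.

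Itgae encodes the alpha E integrin CD103, which pairs with beta 7 and anchors lymphocytes to E-cadherin (chr11:73090505-73147449, plus strand). Mice 1 to 4 of the Smad4 Vil-KO group had 6.28, 4.98, 4.11 and 10.1 CPM, and mice 1 to 5 of the double-knockout group had 5.31, 5.47, 8.03, 10.2 and 4.26 CPM. The groups covered nearly the same range, with a log2 fold change of 0.07 (standard error 0.31, 95% interval -0.62 to 0.76, edgeR adjusted p = 0.901). The gene Haspin lies inside Itgae on the other strand, so that some reads of this row could come from it.

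Because both granzymes rose and the T cell genes did not pass the test, the granzymes were also read against T cell counts within each library, which does not depend on how libraries are scaled. These ratios were chosen after the values had been seen and are given without a test. Gzma counts were 1.23, 2.28, 1.71 and 1.57 times those of Cd3g in mice 1 to 4 of the Smad4 Vil-KO group, and 4.77, 4.91, 4.79, 5.67 and 2.98 times in mice 1 to 5 of the double-knockout group. For Gzmb the same ratio was 0.981, 1.74, 1.42 and 1.80 against 8.58, 7.84, 2.42, 3.44 and 2.09. In both cases the groups did not overlap, with replicate 5 the lowest of the double-knockout libraries, nearer to the highest Smad4 Vil-KO library than to the next double-knockout library. Of 14592 genes, 2.17% had ratios to Cd3g that were higher in all 5 double-knockout libraries than in all 4 others. For Gzmb the gap was narrow, between 92 over 44 counts in double-knockout replicate 5 and 194 over 108 counts in Smad4 Vil-KO replicate 4.

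**Figure D2:**
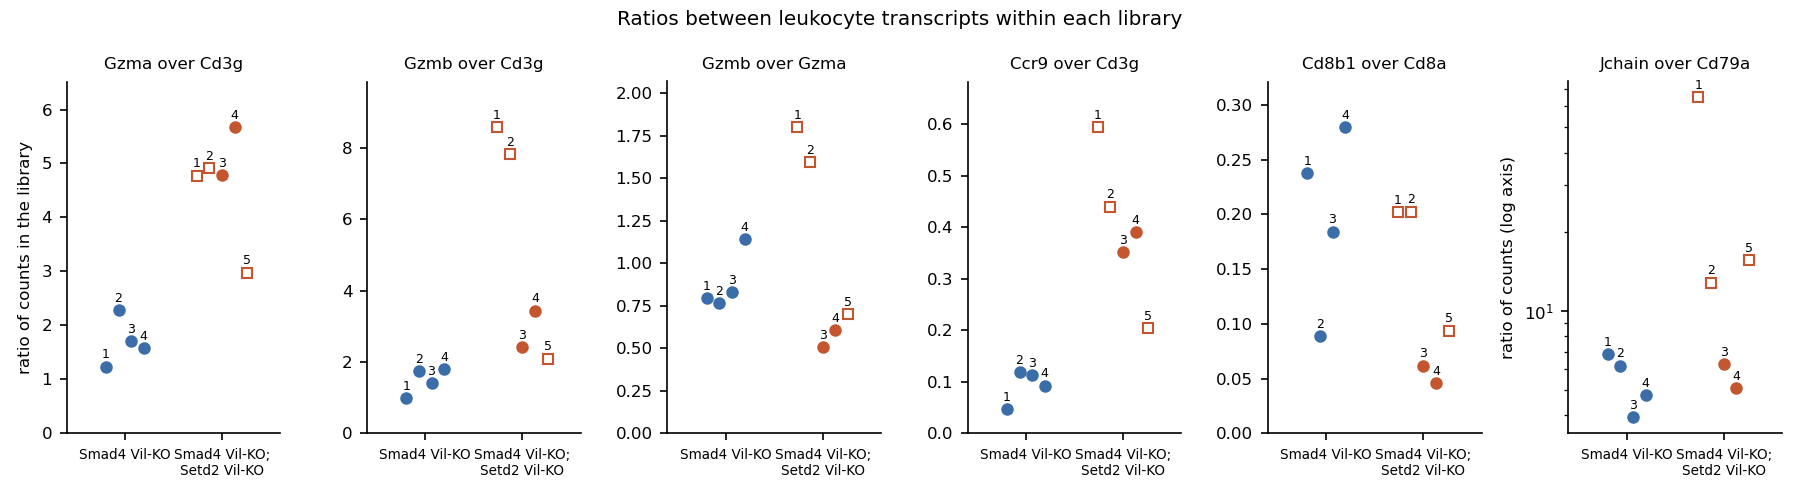
Ratio of the counts of 2 genes within each library, one panel per pair, with numbers marking the replicate and open squares the libraries with Y-linked counts. Axes are linear from 0 except for Jchain over Cd79a, which is on a log axis. Gzma, Gzmb and Ccr9 over Cd3g separate the genotypes, and Gzmb over Gzma and Cd8b1 over Cd8a divide the double-knockout libraries into replicates 1 and 2 and replicates 3 to 5.

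Ptprc encodes CD45, the tyrosine phosphatase found on leukocytes of all lineages (chr1:138062859-138175756, minus strand). It was at 38.1, 31.4, 27.8 and 55.5 CPM in mice 1 to 4 of the Smad4 Vil-KO group and at 48.3, 44.4, 48.6, 56.2 and 22.2 CPM in mice 1 to 5 of the double-knockout group. Smad4 Vil-KO replicate 4 and double-knockout replicate 4 had the highest values and differed little, while double-knockout replicate 5 had the lowest. The log2 fold change was 0.21 (standard error 0.26, 95% interval -0.37 to 0.78, edgeR adjusted p = 0.622). Gzma counts over Ptprc counts were 0.222 to 0.435 and 0.456 to 1.05 in the 2 groups and did not overlap, where 2.11% of genes had ratios to Ptprc that were higher in every double-knockout library. Gzmb over Ptprc did overlap, at 0.176 to 0.333 and 0.321 to 1.57. Of 20 genes found across leukocytes, 19 were tested and 0 called, and the median log2 fold change was 0.30, against -0.0006 over all genes. At an unadjusted p under 0.05 the list gave 0 higher and 1 lower, and DESeq2 and limma-voom called 0. By edgeR 1 gene was called higher without double-knockout replicate 5 and with the replicate block, and 1 lower with a term for Y-linked counts and in the libraries that lacked such counts. Their sum was 145.6 to 256 CPM in the Smad4 Vil-KO libraries, 187 to 256 CPM in double-knockout replicates 1 to 4 and 99.7 CPM in replicate 5.

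In a further fit, chosen after the data had been seen, libraries were scaled to that list instead of by TMM, with the 10 genes studied left out of the list. Gzma and Gzmb were called higher in this fit, with log2 fold changes of 1.49 and 1.595 (edgeR adjusted p = 0.0161 and 0.00811), where 1.94% of all genes were called higher and 1.33% lower. This scaling called 477 genes against 1941 with TMM, and Setd2 was not called (log2 fold change -0.83, edgeR adjusted p = 0.549). The summed list ran from 77.5 to 208 CPM over the libraries, so these shares do not compare with those of the TMM fits. None of the other 8 of the 10 genes was called in this fit. Their log2 fold changes were 0.03 for Ptprc, 0.01 for Cd3g, -0.25 for Cd3e, 0.21 for Cd8a, -0.03 for Itgae, -0.06 for Cd79a, 0.38 for Itgam and 0.80 for Jchain. This scaling moved the median of all genes to -0.10, and it was not repeated with each library left out.

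Jchain encodes the J chain that joins IgA and IgM into polymers (chr5:88519809-88527897, minus strand). It was at 8.78, 24.6, 11.1 and 17.8 CPM in mice 1 to 4 of the Smad4 Vil-KO group and at 45.6, 30.9, 31.5, 36.3 and 15.7 CPM in mice 1 to 5 of the double-knockout group. Double-knockout replicates 1 to 4 lay above all Smad4 Vil-KO libraries and replicate 5 between them. The log2 fold change of 1.04 (standard error 0.33, 95% interval 0.30 to 1.78) missed the threshold, with an edgeR adjusted p of 0.0636. It passed without double-knockout replicate 5 (log2 fold change 1.22, edgeR adjusted p = 0.0176) and in the libraries without Y-linked counts (1.13, adjusted p = 0.0364). Per leukocyte transcript it was 0.80 (edgeR adjusted p = 0.595).

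The immunoglobulin rows could not be set beside it. Igkc was at 0 counts in all 9 libraries and Igha at 1 to 9 counts, while Jchain had 137 to 713 counts. In the same way the T cell receptor constant row Trbc2 was at 0 and Trac at 0 to 2 and Trdc at 0 to 5 counts, while Cd3g had 44 to 142. A count of 0 allows up to 3 counts, 0.178 to 0.238 CPM depending on the library, for counting error only. How reads of these rearranging genes were assigned is not given in the sources used here, so the rows are listed and not read as absence of the cells.

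Cd79a encodes a signalling chain of the B cell receptor (chr7:24897497-24901858, plus strand). At 1.28, 3.98, 2.82 and 3.73 CPM in mice 1 to 4 of the Smad4 Vil-KO group and 0.703, 2.41, 5.03, 7.14 and 1.01 CPM in mice 1 to 5 of the double-knockout group, it had the widest relative spread of the 10 genes in the double-knockout group. The log2 fold change was 0.14 (standard error 0.61, 95% interval -1.20 to 1.48, edgeR adjusted p = 0.900). Jchain over Cd79a counts were 3.93 to 6.85 in the Smad4 Vil-KO group and 64.8, 12.8, 6.26, 5.09 and 15.6 in mice 1 to 5 of the double-knockout group, where the first rests on 11 Cd79a counts.

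Itgam encodes the alpha M integrin CD11b of macrophages, monocytes and neutrophils (chr7:128062640-128118491, plus strand). It was at 3.20, 6.59, 5.34 and 5.71 CPM in mice 1 to 4 of the Smad4 Vil-KO group and at 9.40, 10.2, 5.17, 10.2 and 4.88 CPM in mice 1 to 5 of the double-knockout group. Replicates 1, 2 and 4 of the double-knockout group lay above the Smad4 Vil-KO range, and replicates 3 and 5 within it. The log2 fold change was 0.62 (standard error 0.29, 95% interval -0.03 to 1.26, edgeR adjusted p = 0.181). A predicted gene, Gm49368, overlaps Itgam on the same strand, and how reads were shared between them is not known. Among other myeloid markers, Adgre1 (macrophage F4/80) was at 0.140 to 1.14 CPM in the double-knockout libraries and 0.178 to 2.46 CPM in the others, and Csf1r, the receptor for macrophage colony-stimulating factor, at 1.55 to 5.11 and 1.28 to 7.45 CPM. The neutrophil gene S100a8 was at 0.155 to 8.87 CPM, while Ly6g, also used as a neutrophil marker, was at 57.0 to 172 CPM over the same 9 libraries. Given this gap in level, Ly6g is not read as a measure of neutrophils here.

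The libraries with Y-linked counts and replicate 5 were then taken out in turn. Among the 6 libraries without Y-linked counts, 4 against 2, 3 of the 10 genes were called higher, where 9.29% of all genes were called higher and 10.1% lower. These were Gzma (log2 fold change 2.26, edgeR adjusted p = 0.00012), Gzmb (1.59, adjusted p = 0.00553) and Jchain. With a term for Y-linked counts over all 9 libraries, 1 gene was called higher, against 4.47% of all genes higher and 4.33% lower. This was Gzma (2.25, edgeR adjusted p = 0.01001), and Gzmb had a log2 fold change of 1.58 and an adjusted p of 0.147. Without double-knockout replicate 5, Gzma, Gzmb and Jchain were called higher, with 9.52% of all genes higher and 9.08% lower. The other 7 genes were not called in either set of libraries. Their log2 fold changes ran from 0.13 (Cd3e) to 0.76 (Itgam) without replicate 5 and from 0.47 (Ptprc) to 1.05 (Cd79a) without the libraries with Y-linked counts, and their smallest edgeR adjusted p were 0.0807 and 0.0600. The log2 fold changes of Gzma and Gzmb stayed between 1.58 and 2.30 over these fits and the scaling to epithelial genes.

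**Figure D3:**
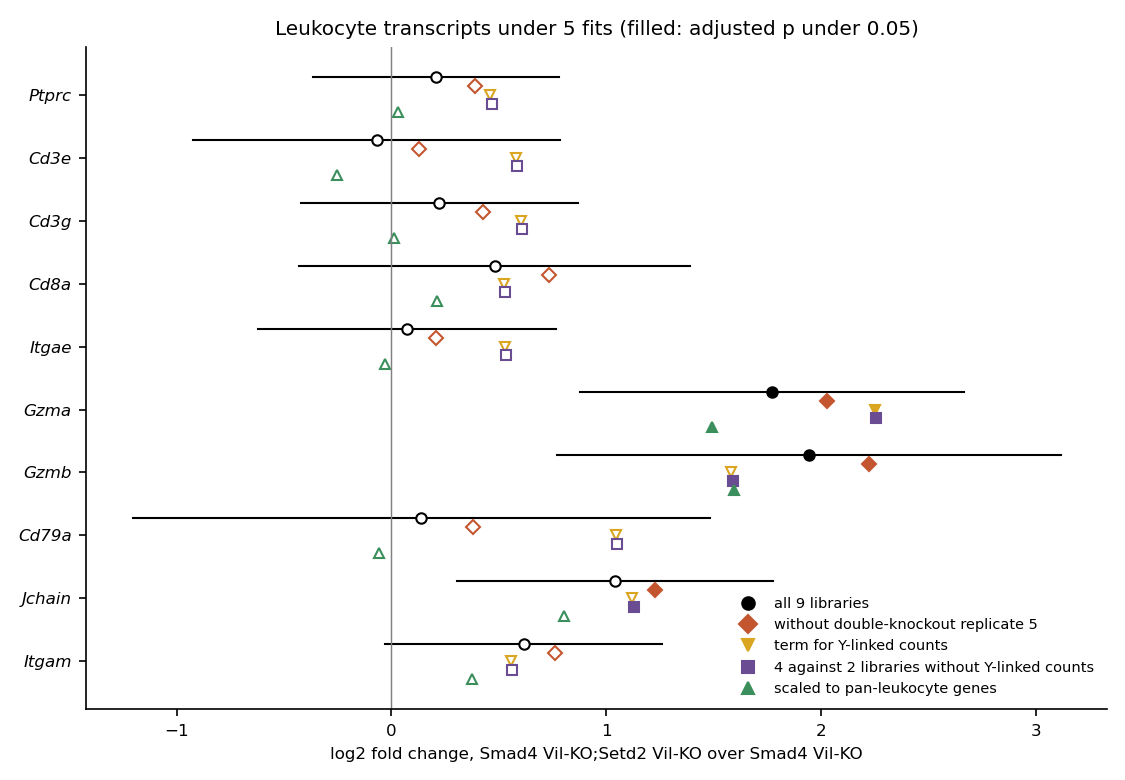
Log2 fold changes of the 10 genes, double-knockout over Smad4 Vil-KO, in 5 fits (all 9 libraries, without double-knockout replicate 5, Y-linked counts as a term, the 6 libraries that lacked them, and scaling to pan-leukocyte genes), with filled symbols for an adjusted p under 0.05 and horizontal lines for the 95% interval of the fit with all 9 libraries. Gzma is filled in 5 of these fits, Gzmb in 4 and not with the term for Y-linked counts, Jchain in 2, and the other 7 genes in none. The fits with other single libraries left out, 7 of which lose the call of Gzmb and 2 that of Gzma, are not drawn.

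Genes of the same cells, those followed above included, were counted in 11 wider lists of leukocyte genes, with 127 of 190 genes tested. Of these 4 were called higher (3.15%), Gzma and Gzmb among them, and 2 lower (1.57%). These were smaller shares than the 6.76% and 6.54% of all genes, so that calls were not frequent among leukocyte genes as a whole. Of 18 cytotoxic granule and natural killer genes, 12 were tested, and all 12 had a log2 fold change above 0, with a median of 0.68. Of these 2 were called, Gzma and Gzmb themselves, and the number was 0 to 6 with each library left out, 6 without double-knockout replicate 5, 0 without Smad4 Vil-KO replicate 1 or replicate 3, and 1 without 5 other libraries in turn. It was 3 in the libraries without Y-linked counts and 1 with the term for them. Of 17 intraepithelial lymphocyte genes, 16 were tested and 2 called higher, with a median of 0.42, against 5 called in the libraries without Y-linked counts and 1 or 2 with each library left out. Of 24 genes of the T cell receptor complex and its signalling, 17 were tested and 0 called by edgeR, DESeq2 or limma-voom, with 0 also at an unadjusted p under 0.05 (median 0.19). In this list edgeR called 2 higher without double-knockout replicate 5, 1 in the libraries without Y-linked counts and 1 with the replicate block. CD4, the coreceptor of helper T cells, had 0.736 to 1.82 CPM for its gene Cd4 in the Smad4 Vil-KO libraries and 0.852 to 3.005 CPM in the double-knockout libraries.

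The 2 intraepithelial lymphocyte genes called higher were Ccr9 and Tox. Ccr9 encodes the receptor for the chemokine CCL25, through which lymphocytes home to the gut. It was at 0.320, 0.712, 0.613 and 0.793 CPM in mice 1 to 4 of the Smad4 Vil-KO group and at 3.84, 3.90, 3.49, 4.08 and 0.697 CPM in mice 1 to 5 of the double-knockout group. Double-knockout replicates 1 to 4 lay above all Smad4 Vil-KO libraries and replicate 5 within their range, with a log2 fold change of 2.39 (standard error 0.49, edgeR adjusted p = 0.0117). Ccr9 counts, 5 to 12 in the Smad4 Vil-KO libraries and 9 to 60 in the others, gave ratios to Cd3g of 0.0467 to 0.119 and 0.205 to 0.594, which did not overlap. Tox, a transcription factor of T cell development and of CD8 T cells, went from 22.4 to 31.1 CPM on average, with a log2 fold change of 0.48 (edgeR adjusted p = 0.0433). Ccr9 was called with each library left out, whereas the call of Tox was lost without any 1 of the Smad4 Vil-KO libraries and without double-knockout replicate 1, 2 or 4 (edgeR adjusted p = 0.0215 to 0.115 over the 9 fits). It was also lost with the replicate block (edgeR adjusted p = 0.0615) and with scaling to pan-leukocyte genes.

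Epithelial genes that signal to these lymphocytes included the ligand of this receptor. Ccl25 was at 2.11 to 3.98 CPM across the Smad4 Vil-KO group and at 20.6, 24.8, 43.1, 51.1 and 14.6 CPM in mice 1 to 5 of the double-knockout group, with a log2 fold change of 3.35. Tnfrsf14, which encodes the herpesvirus entry mediator, rose as well, from 21.7 to 33.3 CPM on average (log2 fold change 0.62). Il18, which encodes a cytokine that acts on lymphocytes, fell from 159 to 81.9 CPM (log2 fold change -0.96, edgeR adjusted p = 0.0466), a call lost without any 1 of the Smad4 Vil-KO libraries and without double-knockout replicate 2 or 4 (adjusted p of up to 0.112). Neither Tnfrsf14 nor Il18 was called with scaling to pan-leukocyte genes. Of 23 such genes 21 were tested, and edgeR called these 2 higher and 1 lower, against 6.76% and 6.54% of all genes. DESeq2 called 5 higher and 1 lower, limma-voom 3 higher and 1 lower, and edgeR 4 higher and 1 lower without double-knockout replicate 5. When Y-linked counts entered the fit as a term, edgeR called 2 higher and 0 lower, and the same numbers with scaling to pan-leukocyte genes. Cdh1, which encodes the E-cadherin that binds the product of Itgae, was among those not called.

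CCL25 is best known from the small intestine, and other genes of small intestinal enterocytes were higher in the double-knockout group. Their sum over 12 genes was 196 to 289 CPM across the Smad4 Vil-KO group and 1064, 1371, 755, 1411 and 374 CPM in mice 1 to 5 of the double-knockout group. Replicate 5 was again the lowest of its group, although not within the Smad4 Vil-KO range. Of 10 genes tested, 9 were called higher, against 6 when Y-linked counts were a term of the fit and 6 to 10 with each library left out. Their median log2 fold change was 3.996, and the 6 with the smallest p were Mttp, Enpep, Sis, Npc1l1, Slc10a2 and Fabp6, several of which act in the digestion or uptake of fats, sugars and bile acids. The goblet cell gene Muc2 fell from 6135 to 1999 CPM (log2 fold change -1.62), the single call by edgeR among 15 epithelial genes, where DESeq2 and limma-voom each called 1 higher and 2 lower. Without double-knockout replicate 5 edgeR called 3 of them lower, and 2 in the libraries that lacked Y-linked counts. The part of the epithelial makeup in the leukocyte values was not tested.

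**Figure D4:**
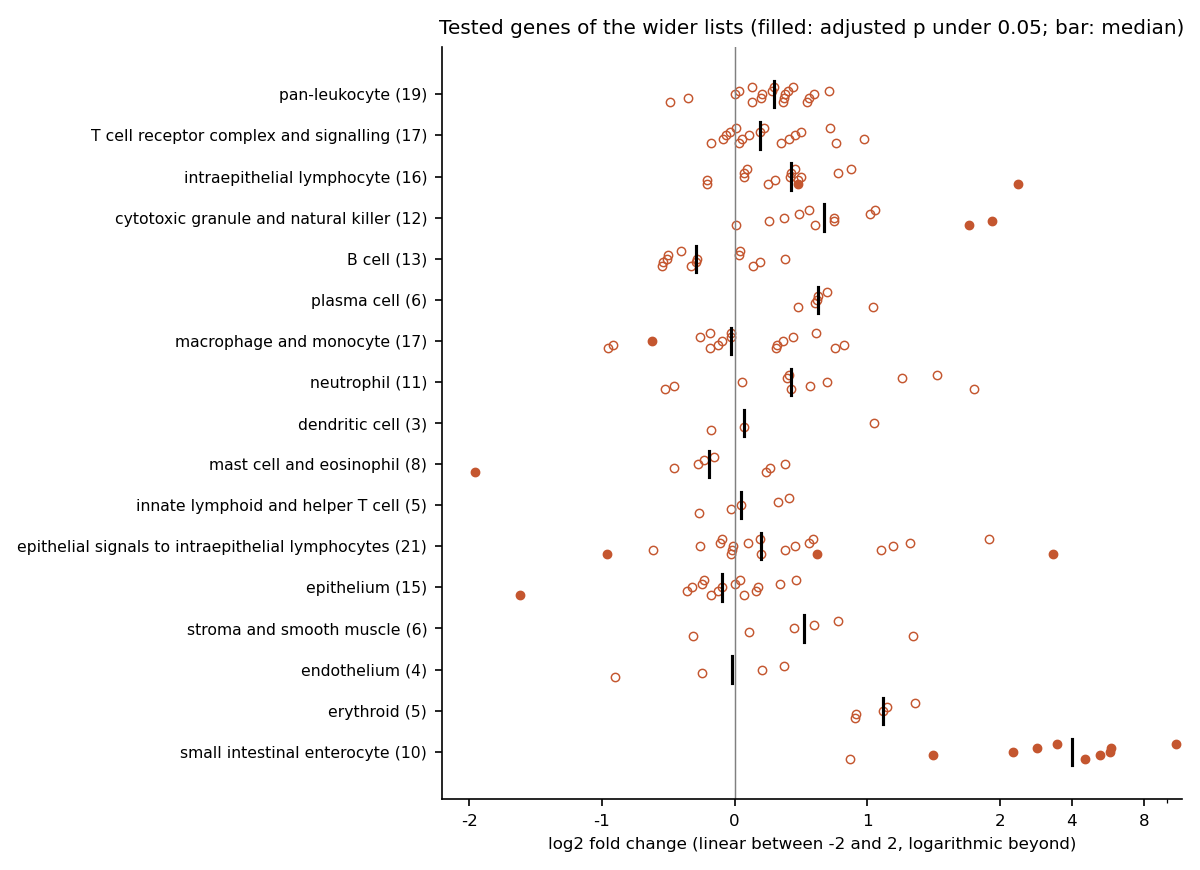
Log2 fold changes of the tested genes of 17 wider lists, double-knockout over Smad4 Vil-KO, with the number tested in brackets, filled points for an adjusted p under 0.05 and bars for list medians. The axis is linear between -2 and 2 and logarithmic beyond. Cytotoxic genes lie above 0 with Gzma and Gzmb filled, most leukocyte lists hold no filled point, and small intestinal enterocyte genes lie far to the right.

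The remaining lists were mostly without calls. Of 15 B cell genes 13 were tested and 0 called, with a median of -0.29 that turned to 0.61 with the term for Y-linked counts and 0.64 in the libraries without them, and of 17 plasma cell genes 6 were tested and 0 called (median 0.62), with 7 at 0 counts in every library. Among 17 macrophage and monocyte genes tested, 1 was called lower (median -0.03). This was Cd14, a coreceptor for lipopolysaccharide, which went from 76.8 to 49.8 CPM (log2 fold change -0.62, edgeR adjusted p = 0.0152). In the Smad4 Vil-KO libraries it stood above the mean of Ptprc (38.2 CPM) and far above Adgre1 and Csf1r. From which cells its reads came is not known. The list gave 0 calls with the term for Y-linked counts and when libraries were scaled to pan-leukocyte or to epithelial genes, and its median was 0.12 without double-knockout replicate 5. Among 8 mast cell and eosinophil genes tested, 1 was called lower, the mast cell chymase gene Cma1, from 6.23 to 1.596 CPM (log2 fold change -1.96, edgeR adjusted p = 0.0251). Its call was lost without Smad4 Vil-KO replicate 1, 3 or 4 or double-knockout replicate 3, with an adjusted p of up to 0.0767. Neutrophil genes (11 tested, median 0.43), dendritic cell genes (3 tested, median 0.07) and innate lymphoid or helper T cell genes (5 tested, median 0.05) gave 0 calls each by edgeR. At an unadjusted p under 0.05, Jchain was the 1 plasma cell gene, Ly6g the 1 neutrophil gene (lower) and Siglech the 1 dendritic cell gene, with 0 B cell and 0 innate lymphoid or helper T cell genes. DESeq2 and limma-voom also called Jchain, limma-voom called 1 neutrophil gene lower, and neither called another gene of these 5 lists. By edgeR 1 neutrophil gene was called lower in the libraries that lacked Y-linked counts and 1 higher with the replicate block. Genes of other cells that such a preparation could hold gave 0 calls for stroma (6 tested, median 0.52), endothelium (4 tested, median -0.02), enteric glia (1 tested, -0.21) and red blood cells (5 tested, median 1.12) by edgeR. At an unadjusted p under 0.05 they gave 3 stromal genes, higher, and 1 endothelial gene, lower, of which DESeq2 called 1 each and limma-voom 0. In the libraries without Y-linked counts edgeR called 4 red blood cell genes higher (median 1.90) and 2 stromal genes higher and 1 lower, and without double-knockout replicate 5 it called 0 red blood cell genes and 2 stromal genes higher. Red blood cell genes summed to 7.42 to 26.8 CPM in the Smad4 Vil-KO libraries and 2.63 to 56.9 CPM in the double-knockout libraries, and stromal genes to 30.9 to 50.2 and 38.1 to 86.7 CPM, with double-knockout replicate 5 the lowest of its group for both. Their part in the leukocyte values was not tested.

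To order the 10 genes by level, CPM was divided by the kilobases of exon of each gene. In the Smad4 Vil-KO libraries the mean CPM per kb ran from Gzma (11.2), Gzmb (7.01), Jchain (6.19), Cd8a (3.67), Ptprc (2.09), Cd3g (2.05), Cd79a (2.03), Itgae (1.39) and Cd3e (1.11) to Itgam (1.04). In the double-knockout libraries Gzma (38.01), Gzmb (26.8) and Jchain (12.7) again led, before Cd8a (5.08), and Itgam (1.59) moved ahead of Itgae (1.45) and Cd3e (1.06). In both groups the ranges of every neighbouring pair overlapped, although within libraries the order held in all of them for some pairs. Jchain was above Cd8a and Cd8a above Ptprc in 4 of 4 Smad4 Vil-KO and 5 of 5 double-knockout libraries, while Gzma was above Gzmb in 4 of 4 and 3 of 5. These orders are given without a test. Gzma and Gzmb together made up 15.7% to 21.2% of the summed CPM of the 10 genes in the Smad4 Vil-KO libraries. Their share was 35.4% to 47.1% in double-knockout replicates 1 to 4 and 22.8% in replicate 5, above the Smad4 Vil-KO range.

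Across libraries, with each genotype mean removed, the genes followed Ptprc to different degrees. Pearson's r of log2 CPM with Ptprc over the 9 libraries was 0.914 for Cd8a, 0.908 for Cd3g, 0.851 for Itgae, 0.812 for Gzma, 0.782 for Cd3e and 0.756 for Gzmb. It was lower for Jchain (0.584), Cd79a (0.432) and Itgam (0.404). The libraries share their scaling, and double-knockout replicate 5 and Smad4 Vil-KO replicate 4 are the low and high points of Ptprc, so these values are descriptions. Outside the 10 genes, Parvg (0.987), Gm4759 (0.976), Adcy7 (0.974) and Il2rg (0.973) were among the genes most like Ptprc of all genes tested. Il2rg encodes the common gamma chain of interleukin receptors.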

How the data were processed

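RNA-seq of colon IECs was analysed in 4 libraries from Smad4 Vil-KO mice and 5 from double-knockout mice, with genotype and replicate taken from the sample labels. The deposited table holds raw counts by gene symbol, neither normalised nor pooled by the authors, with 46095 rows, of which 27 had symbols turned into dates. The submitters' processing notes name HISAT2 2.0 and mm10. The counting program, annotation and use of strand are not given in the sources used here. Total counts were 12487129 to 17120202 per library, and p-values measure the spread between these mice.

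Genes were kept with filterByExpr by genotype, scaled with TMM and tested with the quasi-likelihood test of edgeR 4.0.16 in R 4.3.3, over all 9 libraries without covariates, with Benjamini-Hochberg adjustment over 14593 genes. Standard errors were derived from the F statistic, and 95% intervals use the degrees of freedom of the test. The method was tested on simulated data. Lists were described by counts and medians. Alternatives were DESeq2 1.42.0, limma-voom (limma 3.58.1), robust dispersion, other scalings and filters, other thresholds, the replicate number as a block, a term for Y-linked counts, libraries without such counts, and each library left out. Scaling to pan-leukocyte genes was added after the data were seen. The 10 genes and the wider lists were chosen with earlier results of these data known. From the wider lists, genes named were those with an adjusted p under 0.05 (the 6 with the smallest p where there were more), the defining markers Cd4, Cd8b1, Trac, Trbc2, Trdc, Igha, Igkc, Adgre1, Csf1r, Ly6g, S100a8, Epcam and Vil1, and genes most correlated with Ptprc. Some genes that met this rule are not reported here. Other genes and all ratios were chosen after their values were seen. Positions and promoters are from RefSeq on GRCm38.p6, which is mm10. Exon lengths, strands and overlapping genes are from GENCODE on GRCm38.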

Additional observations from a re-analysis of the deposited data

Results flagged for a closer look

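In 74 groups of 4 or 5 libraries, values and ratios were searched for a library with a gap to its nearest neighbour beyond Dixon's limit, and 6 groups held one, where chance gives about 1 in 20 groups. Double-knockout replicate 5 was the low library for Ccr9, at 0.697 CPM against 3.49 to 4.08 CPM in the other 4. Smad4 Vil-KO replicate 4 was the high library for Gzmb over Gzma counts, at 1.14 against 0.765 to 0.8289, and the low one for the epithelial gene Vil1, at 904.05 CPM against 1017 to 1027 CPM. Double-knockout replicate 2 was the low library for Cd3e over Cd3g counts, at 0.264 against 0.568 to 0.677, which rests on 33 counts of Cd3e. Double-knockout replicate 1 was the high library for Jchain over Cd79a counts, at 64.8 against 5.09 to 15.6, and for Jchain over Ptprc counts, at 0.943 against 0.647 to 0.707.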

How the results depend on the processing

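The 10 genes were recomputed under 22 alternatives each. Of the 220 values, 181 kept their direction and their side of the threshold, 19 crossed the threshold and 20 changed sign, and the cause of these changes was not tested. The changes of sign were in genes with fold changes near 1. Cd3e, at -0.07 on the log2 scale, came to 0.16 with limma-voom, 0.22 scaled to epithelial genes, 0.041 with the replicate block, 0.58 once Y-linked counts were a term, 0.59 in libraries lacking them, and -0.30 to 0.13 with each library left out. Scaling to pan-leukocyte genes, with and without the 10 genes in that list, gave -0.047 and -0.031 for Itgae and -0.10 and -0.060 for Cd79a, and Cd3g came to -0.00428 with them. Leaving out each library gave -0.12 to 0.37 for Itgae and -0.35 to 0.41 for Cd79a. The number of the 10 genes called higher was 2, but 1 with robust dispersion or the term for Y-linked counts, 0 at an adjusted p under 0.01, and 0 to 3 with each library left out, 0 without Smad4 Vil-KO replicate 1 or replicate 3. The number with no overlap between genotypes was 0 to 3, the 3 without double-knockout replicate 5. The share of all genes with no overlap was not computed for that set of libraries, so the 3 are not read as a result. Of the genes in the wider leukocyte lists 6 were called, against 14 in libraries lacking Y-linked counts, 0 at an adjusted p under 0.01 and 2 to 14 with each library left out, 14 being without double-knockout replicate 5, 2 without Smad4 Vil-KO replicate 1 or replicate 3 and 3 without replicate 4. Over all genes, 1941 were called. This count was 2927 with limma-voom, 3856 scaled to epithelial genes, 1285 with Y-linked counts as a term, 2930 in libraries lacking them, 497 and 477 scaled to pan-leukocyte genes with and without the 10 genes, 3107 at an adjusted p under 0.1, 572 at one under 0.01, and 847 to 2696 with each library left out. Scaling to epithelial genes moved the median of all genes to 0.31 and the share of calls that were higher from 50.8% to 91.2%, and scaling to pan-leukocyte genes without the 10 moved that share to 59.3%. With the replicate block 1618 genes were called, and Gzma, Gzmb and Jchain had edgeR adjusted p of 0.000685, 0.00848 and 0.0356. Same-numbered libraries correlated at -0.0973 to 0.0986 over 2000 genes and none matched its own number best, so the numbers were not taken to pair mice. Cd79a rests on 11 to 91 counts a library, which limits what its values can show.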
